A study of Mus musculus with 9 samples.

Results

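The CpGs assigned to olfactory and vomeronasal receptor genes were examined in B cells and in the plasmablasts and plasma cells that form from them. A CpG was included when the gene symbol the authors gave it began with Olfr, Vmn1r or Vmn2r followed by a number, and when each of the 9 libraries covered it with at least 10 reads. This rule gave 1704 of the 356320 CpGs tested (0.478%), from 442 genes. They comprised 1091 CpGs of 292 Olfr genes, 298 of 81 Vmn1r genes and 315 of 69 Vmn2r genes. In all, 4566 CpGs with such symbols were deposited, in 746 genes, and 37.3% of them reached the read minimum. Of the 442 genes, 93 had a single tested CpG, 116 had at least 5, and 7 carried a pseudogene symbol.

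The assay was reduced representation bisulfite sequencing: DNA is cut at CCGG by the enzyme MspI, and bisulfite turns unmethylated cytosines into bases read as thymine. The cells were sorted from the spleen, the mice being C57Bl/6J females 10 weeks old, with 3 libraries per stage. Naive B cells were the B220+ CD43- cells of mice given no treatment. Plasmablasts (CD138+ with intermediate B220), the dividing precursors of plasma cells, and plasma cells (CD138+ with low B220), the antibody-secreting end stage, were sorted 3 days after injection of the bacterial lipopolysaccharide LPS. The labels do not tie libraries to animals, so p-values measure only how far these libraries differ, and part of that may be technical.

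Olfactory receptors (Olfr) are G protein-coupled receptors of the main olfactory epithelium, where each sensory neuron uses a single receptor gene from a very large repertoire. Vmn1r and Vmn2r receptors are used by sensory neurons of the vomeronasal organ and detect pheromones and related cues. Vmn1r receptors signal through the G protein subunit encoded by Gnai2, and Vmn2r receptors, which carry a long extracellular domain, through that encoded by Gnao1. The genes lie in large tandem clusters. Most genes with CpG-rich promoters keep them free of methylation, whereas receptor genes start in CpG-poor DNA.

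That difference in sequence sets which CpGs this assay can see. Among 1265 receptor promoters of RefSeq (GRCm38.p6, the 250 bases before the annotated start), the median number of CpGs was 1, and 40.6% held none. The other 25760 promoters had a median of 6, and 6.67% held none. Median GC content was 34.8% against 52.8%. The MspI site CCGG, searched on both strands (it is its own reverse complement), occurred in 4.11% of the receptor promoters and in 48.9% of the others. The homeodomain core TAATTA, also its own reverse complement and of the kind bound by Lhx2, a regulator of receptor choice, occurred in 16.2% against 4.35%. TCCCNNGGGA, the core of motifs bound by Ebf factors, was searched on both strands and occurred in 0.316% against 0.811%. A match describes the letters only.

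Of the 442 genes, 377 matched a RefSeq promoter by symbol, and 3 of these had a tested CpG in the 250 bases before their start. These 3 promoters are shown because they are the matched receptor promoters whose methylation the assay read. Olfr658 is not among these 3, although it had tested CpGs up to 215 bases before its start. Its values are given below. Each sequence runs 5′ to 3′ on the gene's strand up to the base before the start, and capitals mark the CpG that was measured, which lies in a CCGG in each. The CpG was placed by its deposited distance to the start site, since the deposited coordinates are of build mm9. The annotated start of a receptor gene can be that of its coding sequence.
Olfr1009, GRCm38.p6 chr2:85721157-85721406, + strand: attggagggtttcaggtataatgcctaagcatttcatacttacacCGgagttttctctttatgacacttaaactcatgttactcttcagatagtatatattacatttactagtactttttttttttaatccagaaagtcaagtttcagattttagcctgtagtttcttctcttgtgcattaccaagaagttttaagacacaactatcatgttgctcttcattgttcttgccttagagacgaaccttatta
Olfr281, GRCm38.p6 chr15:98456062-98456311, + strand: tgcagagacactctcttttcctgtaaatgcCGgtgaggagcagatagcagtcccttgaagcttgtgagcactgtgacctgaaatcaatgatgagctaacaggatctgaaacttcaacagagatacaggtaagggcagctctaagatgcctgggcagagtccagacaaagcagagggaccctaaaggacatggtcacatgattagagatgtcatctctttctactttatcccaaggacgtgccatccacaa
Olfr517, GRCm38.p6 chr7:108869153-108869402, - strand: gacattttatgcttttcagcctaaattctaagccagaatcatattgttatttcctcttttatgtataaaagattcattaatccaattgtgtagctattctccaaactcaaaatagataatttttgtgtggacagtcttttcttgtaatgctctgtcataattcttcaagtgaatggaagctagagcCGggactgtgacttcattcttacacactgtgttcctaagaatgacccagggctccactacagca

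All 3 promoter CpGs were methylated in naive B cells, at 79.1% or more on average. The CpG of Olfr517, in the printed promoter 64 bases before the start, stood at 75%, 86.0% and 76.2% in the naive B cell libraries, 46.4%, 34.1% and 63.0% in plasmablasts, and 37.0%, 41.4% and 23.7% in plasma cells. Both LPS stages lay below every naive B cell library, and they overlapped with each other. The CpG of Olfr281 stood at 92.9%, 94.0% and 97.9% in naive B cells, then 84.4%, 78.6% and 97.4% in plasmablasts, then 69.6%, 64.7% and 64.3% in plasma cells. Only the plasma cells lay apart from the naive B cells there. The CpG of Olfr1009 was the most methylated of the 3 in plasma cells, with 97.9% ± 2.13 (SD, n = 3) in naive B cells, then 87.1% ± 11.1 in plasmablasts, then 83.1% ± 5.25 in plasma cells. These are descriptions of single sites.

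Depth and library differences were as follows for all results below. Reads over CpGs totalled 16037172 to 29948088 per library, and the median coverage of the receptor CpGs was 21 to 38 reads. At that depth a single CpG's level is coarse, and limits from read counts cover counting error only, since no molecular identifiers are described for these libraries. At 78135 other CpGs that were nearly unmethylated, naive B cells 1 and all plasma cell libraries read 0.749% to 1.16%, whereas naive B cells 2 and 3 and the plasmablasts read 2.08% to 6.10%. All plasmablasts were in the high set and all plasma cells in the low set, so stage and library set cannot be told apart between them. As a check of the labels, CpGs within 1 kb of the starts of the B cell genes Cd79b and Pax5 and the plasma cell genes Sdc1 and Xbp1 averaged 2.45% or less in naive B cells, and they were low in the other groups as well, so these markers do not separate the stages. Of the T cell markers, Tcf7 averaged 58.7%, 53.6% and 45.0% in naive B cells, plasmablasts and plasma cells, and Lck 12.2%, 12.95% and 8.99%. The part of other cell types in the results was not tested.

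Methylation of the receptor CpGs was lower at both LPS stages than in naive B cells, in all 3 families. Their mean level was 85.2%, 87.0% and 86.9% in the naive B cell libraries, 74.1%, 75.2% and 75.05% in plasmablasts, and 72.6%, 69.3% and 68.2% in plasma cells. No library of one stage overlapped with another stage, and plasma cells 1 lay nearest to the plasmablasts. Plasmablasts were 11.6 points and plasma cells 16.3 points below naive B cells, and plasma cells were 4.76 points below plasmablasts (exact two-sided permutation test over libraries, p = 0.1 for each, the smallest that 3 against 3 allows). Within the high library set plasmablasts were 12.2 points below naive B cells, and within the low set plasma cells were 15.1 points below the single naive B cell library there. Of the mean difference seen in plasma cells, 70.8% was already present in plasmablasts, against 60.4% over all other tested CpGs. These sets were not matched for starting level. Among CpGs with a naive level of 80% or more, receptor CpGs differed by -12.5 points in plasmablasts and -16.9 in plasma cells. The other CpGs of that class differed by -12.5 and -17.6 points.

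By family, Olfr CpGs averaged 85.4% ± 0.999 (SD, n = 3) in naive B cells, then 73.8% ± 0.472 in plasmablasts, then 69.4% ± 2.18 in plasma cells. Vmn1r CpGs had the highest levels of the 3 families at each stage, with 89.4% ± 0.889, 77.2% ± 1.12 and 72.1% ± 2.49. Vmn2r CpGs lay between them at 87.0% ± 1.52, 75.9% ± 0.712 and 70.3% ± 2.44. From naive B cells, the gap between olfactory and vomeronasal CpGs moved by 0.10 points in plasmablasts and by 0.96 points in plasma cells (exact permutation p = 1 and 0.1; adjusted over the 27 gaps tested, 1 and 0.169). Between single libraries the second change ran from 0.41 to 1.60 points. It turned to -0.83 points with a minimum of 20 reads, so its direction was not stable.

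**Figure D1:**
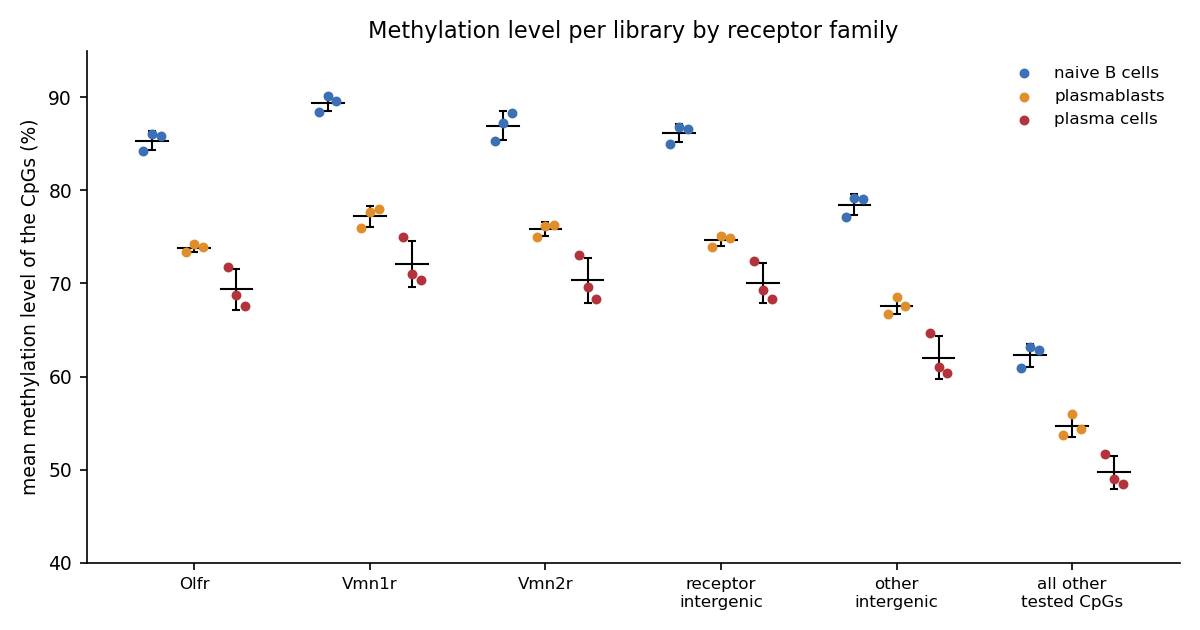
Mean methylation level (%) of each set of CpGs in each library (points, 3 per stage), with the group mean and SD as black bars; the y axis starts at 40%. In every set shown the naive B cell libraries are highest and the plasma cell libraries lowest, and Vmn1r CpGs stand highest, at 89.4% in naive B cells.

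The distribution of levels was a narrow peak in naive B cells and broad at the LPS stages. In naive B cells the median receptor CpG was at 95.9%, and 73.2% of the CpGs were at 90% or more. In plasmablasts the median was 82.3% and 22.9% reached 90%. In plasma cells the median was 77.6% and 15.0% reached 90%, while 39.8% lay between 50% and 80%. At the lower end, 103 CpGs were under 20% in naive B cells, while plasma cells had 129. Of the receptor CpGs, 2 (0.117%) stayed at 95% or more in all 9 libraries, beside 0.184% of the others. The mean was lower in plasma cells than in naive B cells at 1641 of the 1704 CpGs, a count not taken over the others. At 1111 (65.2%) the 3 stage means were ordered naive, plasmablast, plasma cell, against 53.6% of the other CpGs. The plasma cell mean lay below the plasmablast mean at 72.9% of receptor CpGs, against 77.5% of the others. These shares were not matched for starting level. In naive B cells 30.8% of the other CpGs were under 20%, against 6.04% of receptor CpGs.

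**Figure D2:**
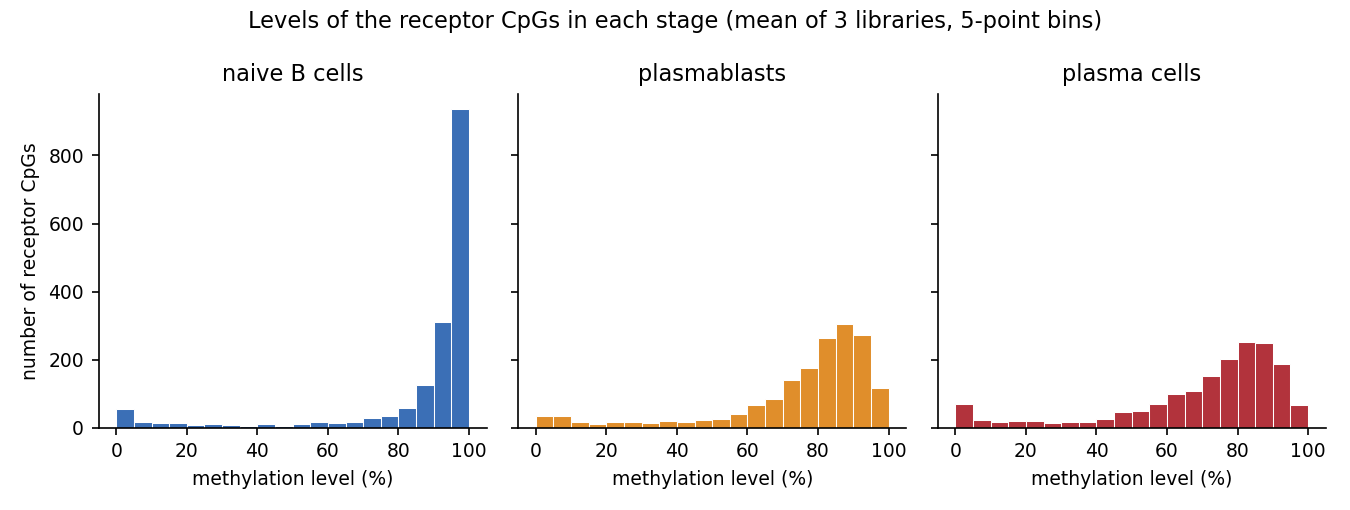
Histograms of the level of the 1704 receptor CpGs (x axis, mean of 3 libraries, %, in 5-point bins; y axis, number of CpGs) in each stage. The peak near full methylation in naive B cells spreads downward in plasmablasts and further in plasma cells, and few CpGs reach the low end.

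Single CpGs were tested with a quasi-binomial model (adjusted p under 0.01 and at least 20 points). In plasmablasts 230 receptor CpGs (13.5%) in 166 genes were lower than in naive B cells, beside a background of 10.1% over all tested CpGs. In plasma cells 512 (30.05%) in 285 genes were lower, beside 22.3%. Of these, 192 were lower at both stages, and the remaining calls were 38 in plasmablasts and 320 in plasma cells. Both comparisons use the same naive B cell libraries, and the overlap was not counted over all CpGs. No receptor CpG was called higher at either stage, where the background was 0.0539% and 0.0407%, and none was higher in plasma cells than in plasmablasts. Between these 2 stages 3 receptor CpGs (0.176%) were lower in plasma cells, beside 0.313%. These backgrounds were not matched for starting level. The first count rests on how the spread was estimated: with the dispersion prior taken from all CpGs, the literal reading of the planned fit, the counts were 34, 372 and 0. Under that prior 2.00% of receptor CpGs against 2.39% of all CpGs were lower in plasmablasts, so the excess over the background turned round there, and 21.8% against 16.3% were lower in plasma cells. With library set as a term the plasma cell count was 222 (13.03%), beside 35629 of all 356320 CpGs. In the authors' deposited table of CpGs differing between plasma cells and naive B cells, 667 of the 4566 deposited receptor CpGs were listed (14.6%, against 10.6% of all deposited CpGs), and in that for plasmablasts 80 were listed (1.75% against 1.93%).

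Receptor CpGs and other CpGs differed in position and starting level, and they were therefore also compared within classes of both. Over all CpGs, the level of receptor CpGs exceeded that of the others by 24.1 ± 0.204 points in naive B cells, then 20.1 ± 0.761 in plasmablasts, then 20.3 ± 0.552 in plasma cells (SD, n = 3). Relative to naive B cells the gap moved by -3.97 points in plasmablasts and by -3.74 points in plasma cells (exact permutation p = 0.1 for both, adjusted 0.169). Receptor CpGs were far more often intergenic, 86.5% against 34.0% of all tested CpGs. Among intergenic CpGs, the receptor set was 11.5 points lower in plasmablasts and 16.1 points lower in plasma cells, and the other set 10.85 and 16.4 points lower. The change of the gap there was -0.64 and 0.34 points (exact permutation p = 0.1 and 0.2; adjusted 0.169 and 0.3).

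Among CpGs with a naive level of 80% or more, the difference in plasma cells was -16.9 points at 1432 receptor CpGs and -17.6 points at 203223 others, and in plasmablasts -12.5 points in both sets. The gap changed by -0.01 points in plasmablasts, between -0.35 and 0.33 over pairs of libraries, and by 0.63 points in plasma cells, between 0.31 and 1.08 (exact permutation p = 0.9 and 0.1; adjusted 0.935 and 0.169). The share called lower in plasma cells was 31.6% of these receptor CpGs and 32.9% of the others. Choosing CpGs by their naive level was done alike in both sets.

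Receptor genes differed from others near their start sites. Only 115 receptor CpGs (6.75%) lay within 1 kb of a start, against 26.4% of the other CpGs, and they were methylated: 86.4%, 89.1% and 89.9% in the naive B cell libraries, 77.2%, 77.5% and 78.5% in plasmablasts and 76.0%, 71.0% and 70.1% in plasma cells. The other CpGs within 1 kb of a start were at 13.98% to 16.8% in naive B cells. Receptor start regions were 10.7 points lower in plasmablasts and 16.1 points lower in plasma cells. The other start regions differed by -0.16 and -4.10 points. The gap between both sets differed by -10.6 and -11.99 points (exact permutation p = 0.1 for both, adjusted 0.169). With a naive mean of 15.8%, the other start regions could not fall by 16.1 points. The gap therefore cannot tell position from starting level. Receptor CpGs were highly methylated at every distance, between 80.1% at 50 to 100 kb and 95.9% beyond 100 kb in naive B cells. Their mean differences in plasma cells ran from -15.7 points at 10 to 50 kb to -18.4 points beyond 100 kb. By annotated class, the 59 promoter CpGs were 18.0 points lower in plasma cells, the 104 exon CpGs 16.5 and the 67 intron CpGs 19.4.

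**Figure D3:**
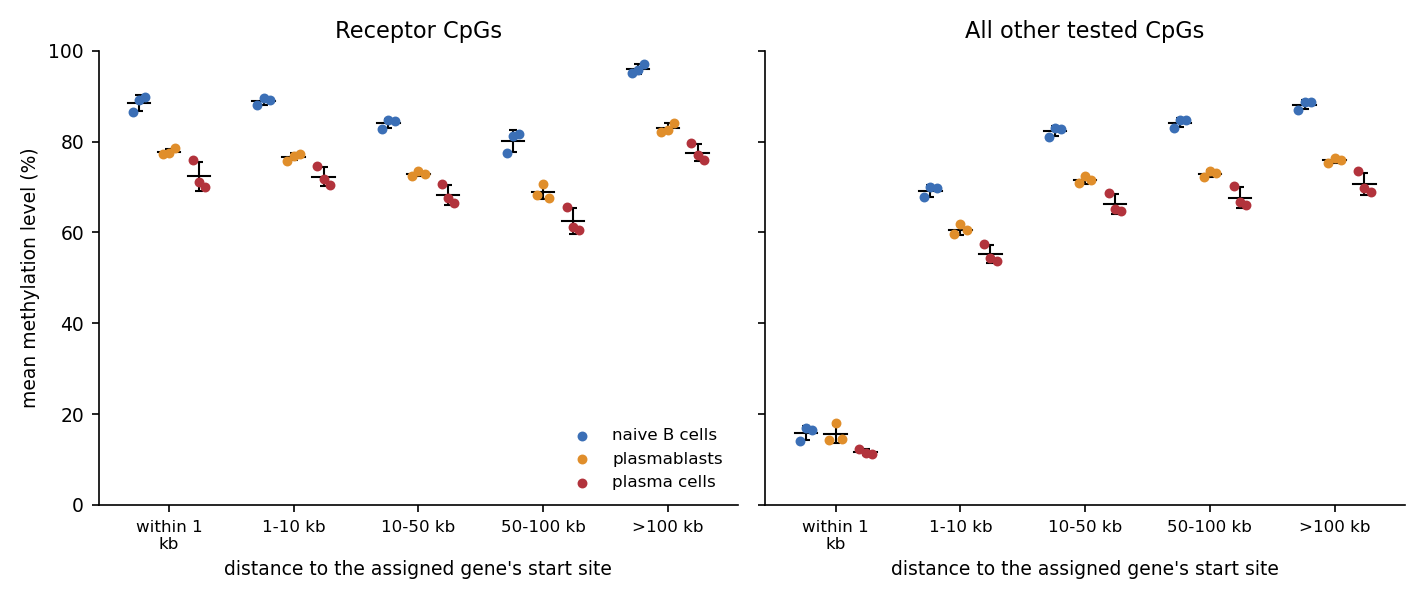
Mean methylation level (%) of receptor CpGs (left) and all other tested CpGs (right) by distance to the assigned gene's start site, per library (points) with group mean and SD (black). Receptor CpGs within 1 kb of a start stand at 88.5% in naive B cells and the other CpGs there at 15.8%, while beyond 10 kb the naive levels of both panels lie between 80.1% and 95.9%.

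An exception among receptor start sites was Olfr658, an olfactory receptor gene on chromosome 7, chosen for mention after its values were seen. Its 7 CpGs from 37 bases before to 33 bases after the start averaged 27.2% to 39.96% in naive B cells, 24.9% to 39.3% in plasmablasts and 15.5% to 24.2% in plasma cells. Levels in single naive B cell libraries ran from 6.90% to 55.2%, so the libraries of each stage overlapped, and none of these CpGs passed the test in any contrast. The 2 CpGs of Olfr658 at 203 and 215 bases before the start were at 76.9% and 88.4% in naive B cells. Neighbouring CpGs of a run such as this are read by the same sequencing reads and are not independent.

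Gene loci, the reads of at least 5 CpGs pooled per gene, were tested with the same model (adjusted p under 0.01 and at least 5 points). In plasmablasts 33 of the 116 receptor loci were lower (28.4%), beside 19.8% of all 14220 loci, and in plasma cells 80 (69.0%), beside 64.4%. Median differences were -11.1 and -14.4 points, against -7.42 and -15.7 over all loci. With the prior from all loci the counts were 59 (50.9%) and 90 (77.6%), beside 26.1% and 67.8% of all loci. All 116 loci had a negative difference in plasma cells and 109 did in plasmablasts, signs that were not counted over all loci. No receptor locus was called higher. In plasma cells 45 of 71 Olfr, 13 of 19 Vmn1r and 22 of 26 Vmn2r loci were lower, and in plasmablasts 18, 7 and 8. Between plasma cells and plasmablasts no locus passed, and the median difference was -4.07 points, against -7.78 over all loci. An unadjusted p under 0.05 was seen at 10 receptor loci, all lower in plasma cells, a count not taken over all loci. Limma on unweighted levels called 2 (1.72%), beside 11.2% of all loci.

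The plasmablast count of loci, and its excess over the background, rested on single libraries. Leaving out naive B cells 2 or 3 gave 3 and 4, leaving out plasmablasts 1, 2 or 3 gave 2, 3 and 2. In these 5 fits 1.72% to 3.45% of the receptor loci were lower, beside 6.17% to 7.66% of all loci, so the receptor share was then the smaller. The count was 37 without naive B cells 1 (31.9%, beside 28.9% of all loci). Plasma cell libraries enter this comparison only through the shared estimate of the spread. With plasma cells 1, 2 or 3 left out the count was 55 (47.4%, beside 28.0%), 18 (15.5%, beside 14.9%) and 26 (22.4%, beside 18.0%). The plasma cell count was 54 to 84 when 1 library was left out, and the receptor share minus that of all loci ran from -1.46 to 6.18 points. With library set as a term it was 29 (25%), beside 35.2%.

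The receptor loci with most tested CpGs were as follows. Olfr161, with 32 intergenic CpGs on chromosome 16 (mm9 chr16:3114610-3645733), stood at 90.1%, 89.1% and 83.2% in naive B cells, then 77.1%, 77.4% and 77.3% in plasmablasts, then 75.04%, 74.0% and 68.7% in plasma cells. The stages did not overlap, and the differences were -10.6 points in plasmablasts and -15.4 in plasma cells (adjusted p = 0.00625 and 0.000281). Vmn1r27, with 20 CpGs at 44033 to 55415 bases from its start on chromosome 6, stood at 93.9%, 93.1% and 91.3%, then 78.5%, 80.1% and 80.3%, then 74.1%, 68.2% and 62.9%. It was lower by 13.4 points in plasmablasts and 24.8 points in plasma cells (adjusted p = 0.00237 and 3.97e-05), and 17 of its CpGs were called lower in plasma cells. Olfr49, with 17 CpGs, differed less, at 97.6%, 98.7% and 97.5% in naive B cells, then 90.8%, 90.04% and 91.6% in plasmablasts, then 90.04%, 90.4% and 88.5% in plasma cells. Its difference in plasma cells was -8.31 points (adjusted p = 0.000451), with no single CpG called and the 2 LPS stages overlapping.

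Vmn2r121 on the X chromosome (18 CpGs) was lower at both stages, by 9.22 and 13.7 points (adjusted p = 0.0043 and 0.000239), as were Olfr275 (15 CpGs, 10.5 and 12.4 points; adjusted p = 0.00429 and 0.000603) and Olfr774 (14 CpGs, 10.0 and 12.5 points; adjusted p = 0.00353 and 0.000402). Olfr1257 (19 CpGs) and Olfr31 (19 CpGs) passed only in plasma cells, by -10.8 and -22.0 points (adjusted p = 0.000832 and 0.000938), and in plasmablasts their adjusted p was 0.0162 and 0.15. The call of Olfr1257 was lost with library set as a term. Vmn1r42 (16 CpGs) passed at neither stage, with -5.73 and -6.88 points (adjusted p = 0.167 and 0.0626). The plasmablast calls of Olfr161, Vmn1r27, Olfr49, Olfr275, Olfr774 and Vmn2r121 were each lost on leaving out some single libraries, plasmablasts 1, 2 and 3 among them in every case. That of Olfr161 was also lost with library set as a term.

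The largest differences were at small loci. Vmn2r3, on chromosome 3 with 6 CpGs, stood at 80.8%, 83.2% and 85.5% in naive B cells, then 49.1%, 62.5% and 61.5% in plasmablasts, then 48.8%, 37.9% and 39.8% in plasma cells. The LPS stages lay far below naive B cells without overlap, by 23.95 and 40.4 points (adjusted p = 0.007 and 0.000138). Olfr444 (7 CpGs, chromosome 6) stood at 94.4%, 96.4% and 97.9%, then 73.7%, 78.0% and 80.2%, then 67.7%, 64.3% and 65.1%, a difference of -30.3 points in plasma cells (adjusted p = 5.33e-05). Its calls against naive B cells held at both stages under every alternative run, whereas the plasmablast call of Vmn2r3 was lost without naive B cells 2 or 3, any plasmablast library or plasma cells 2. Vmn1r184 (6 CpGs) was lower by 29.6 points in plasma cells (adjusted p = 0.000407, with a plasmablast call that was lost on leaving out any plasmablast library), Vmn1r174 (5 CpGs) by 28.7 (adjusted p = 0.00163) and Olfr1472 (5 CpGs) by 26.8 (adjusted p = 0.00269). For Olfr1472 the plasma cell call was lost without naive B cells 2 or 3 or plasma cells 2 or 3, and with library set or replicate number as a term.

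Among the loci with the smallest differences were 3 with low methylation in naive B cells, and Olfr311 and Olfr1431, which stood higher. Olfr726 (15 CpGs) was at 4.8%, 8.3% and 5.4% in naive B cells against 3.9%, 6.7% and 6.1% in plasma cells, and Olfr1368 (6 CpGs) at 0.8%, 4.0% and 3.5%, and 1.6%, 3.5% and 1.0%. Olfr1344 (11 CpGs) was at 14.4% ± 2.16 (SD, n = 3) in naive B cells against 13.2% ± 1.97 in plasma cells. Naive B cell and plasma cell libraries overlapped at all 3. Olfr311 (8 CpGs), a mixture of low and high CpGs, varied from 40.4% to 64.6% among naive B cell libraries. Olfr1431 (5 CpGs) stayed high, at 97.6% ± 2.77 in naive B cells, then 88.4% ± 10.1 in plasmablasts, then 91.9% ± 2.13 in plasma cells (adjusted p = 0.392 in plasma cells). Olfr545 and Olfr1372-ps1 also contained unmethylated stretches and stood at 27.9% and 27.3% in naive B cells. They were lower by 13.2 and 11.6 points in plasma cells (adjusted p = 0.00646 and 0.00384). Both calls were lost with library set or replicate number as a term. They were also lost without naive B cells 2 or 3 or plasma cells 2 or 3, and that of Olfr545 without plasmablasts 2.

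**Figure D4:**
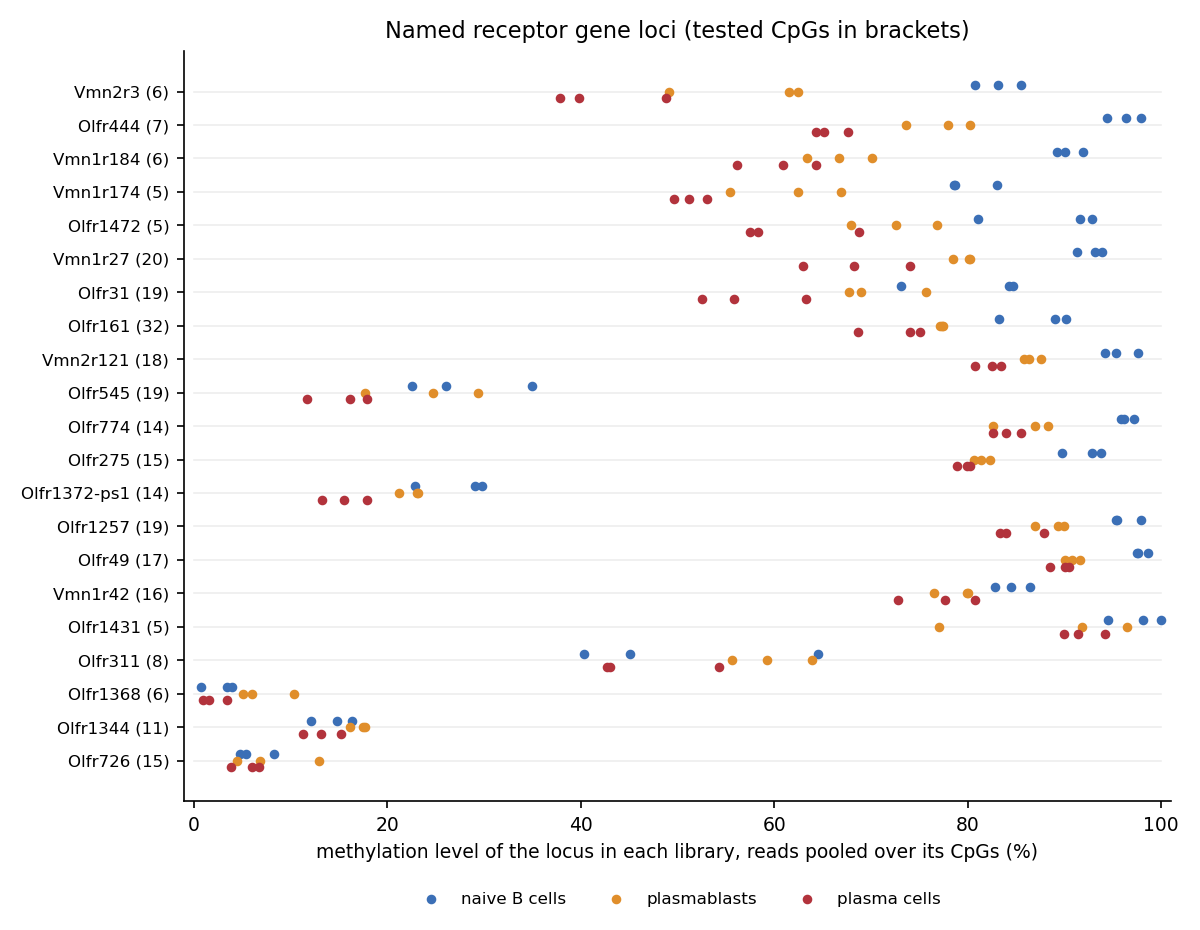
Methylation level (x axis, %, reads pooled over the CpGs of a locus) of the named receptor loci in each of the 9 libraries (points, coloured by stage), ordered by the difference between plasma cells and naive B cells. Vmn2r3 at the top fell by 40.4 points. Near the bottom, Olfr726 was low in all libraries, while Olfr1431 averaged 97.6% in naive B cells.

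Among receptor genes studied outside the nose, Olfr2, known from vascular macrophages, and Olfr1393, known from the kidney, had a single tested CpG each. That of Olfr2 averaged 99.1% in naive B cells, then 94.2% in plasmablasts, then 92.2% in plasma cells, and that of Olfr1393 97.3%, 82.3% and 88.3%. At both genes every stage kept high methylation at the measured CpG.

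The single receptor CpG with the largest difference lay 35354 bases from the start of Vmn2r3 (mm9 chr3:64055984). It read 81.8%, 97.1% and 83.3% in naive B cells, then 52.6%, 65% and 78.9% in plasmablasts, then 30.8%, 0% of 15 reads (which allows up to 20.0%) and 10.3% in plasma cells. The pooled difference in plasma cells was -69.8 points (adjusted p = 6.91e-12). It was also one of the 3 CpGs lower in plasma cells than in plasmablasts, by 48.2 points (adjusted p = 0.000249). The next largest were CpGs of Olfr52 (-56.2 points, adjusted p = 7.16e-08), Olfr519 (-54.1, adjusted p = 9.34e-07), Vmn1r67 (-52.4, adjusted p = 1.95e-06) and Vmn1r31 (-51.0, adjusted p = 2.91e-06), all intergenic. At Vmn1r31 the plasmablast libraries spread from 25% to 77.8%.

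The other CpGs lower in plasma cells than in plasmablasts were named for that call after their values were seen. An exon CpG of Olfr94, 656 bases after its start, read 8.0%, 8.70% and 15.0% in naive B cells, then 20.0%, 20.0% and 46.2% in plasmablasts, then 0% of 74 pooled reads in plasma cells, which allows up to 4.05% (adjusted p = 0.00461 between the LPS stages). Plasmablasts were the high group there, and each of their libraries had 13 to 15 reads. A CpG 36509 bases from Olfr267 read 87.2%, 79.5% and 73.5% in naive B cells, then 76.6%, 73.9% and 79.1% in plasmablasts, then 53.1%, 25% and 48.1% in plasma cells (adjusted p = 0.0015 between the LPS stages). Plasmablasts overlapped with naive B cells and plasma cells lay below both. The largest positive differences in plasma cells, at CpGs of Vmn1r53 (9.93 points), Vmn1r223 (7.04), Vmn2r87 (5.77), Vmn2r88 (5.73) and Olfr161 (4.50), all failed the test, with adjusted p of 0.109 or more.

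How much a receptor CpG differed varied with the number of CpGs around it. Counting the other deposited CpGs within 35 bases, and keeping CpGs with a naive level of 80% or more, 604 receptor CpGs had no such neighbour, 651 had 1 or 2, and 177 had 3 or more. Isolated CpGs stood at 93.9%, 95.3% and 95.4% in naive B cells, then 78.7%, 79.9% and 80.2% in plasmablasts, then 77.4%, 71.8% and 70.7% in plasma cells. Crowded CpGs with 3 or more neighbours stood at 95.6%, 96.7% and 96.6%, then 89.1%, 89.3% and 87.9%, then 89.1%, 87.6% and 87.1%. In plasma cells the difference was thus -21.6 points at isolated CpGs, -15.0 with 1 or 2 neighbours and -8.35 with 3 or more, and 49.5%, 21.8% and 6.21% were called lower, beside 45.9%, 26.6% and 10.6% of the other CpGs in these classes.

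The level of isolated minus that of crowded receptor CpGs was lower than in naive B cells, moving by -7.76 points in plasmablasts and -13.2 points in plasma cells (exact permutation p = 0.1 for both, adjusted 0.169). Over pairs of single libraries the smallest such changes were -5.93 and -9.97 points. Other CpGs had the same order, with -21.2, -16.0 and -10.5 points in plasma cells. The change at isolated receptor CpGs differed from that at other isolated CpGs by -0.76 points in plasmablasts and -0.42 in plasma cells (exact permutation p = 0.1 and 0.4; adjusted 0.169 and 0.491). Receptor CpGs had no neighbour more often than others, 40.02% against 30.9% of tested CpGs. Only CpGs in the deposited table count as neighbours, and 2 CpGs of 1 MspI fragment share reads.

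**Figure D5:**
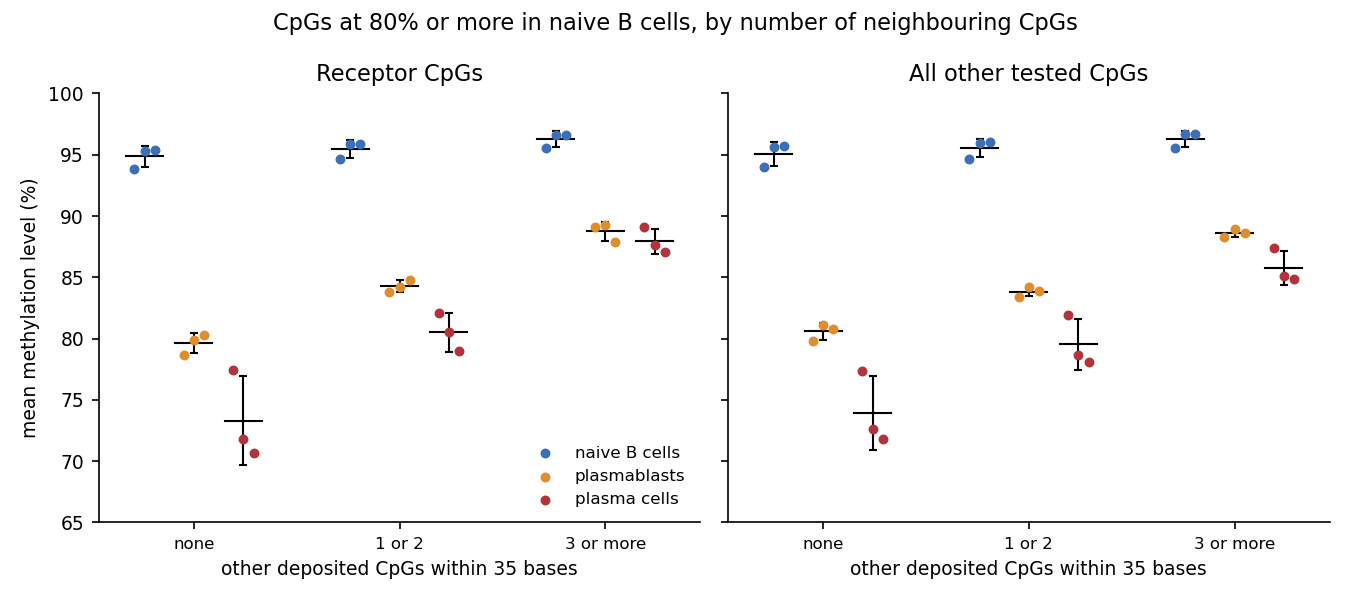
Mean methylation level (%) of CpGs with a naive level of 80% or more, by the number of other deposited CpGs within 35 bases, for receptor CpGs (left) and all others (right); points are libraries, black bars the group mean and SD, and the y axis starts at 65%. Isolated receptor CpGs in plasma cells stand at 73.3% and crowded ones at 87.9%, from about the same level in naive B cells.

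Receptor genes lie in tandem clusters, which allowed the differences to be followed along chromosomes. With a new cluster begun wherever neighbouring receptor CpGs lay over 1 Mb apart, there were 62 clusters, of which 31 had at least 20 CpGs and held 1425 CpGs. In each of the 31 every plasma cell library was below every naive B cell library, and in 30 this held for plasmablasts. Mean differences ran from -22.1 to -9.25 points in plasma cells, with a median of -16.3, and from -16.6 to -4.14 in plasmablasts, with a median of -11.5. In 21 clusters every plasma cell library was also below every plasmablast library. Clusters of other genes were not counted. The other intergenic CpGs, taken as a whole, did not overlap between stages either. Their libraries ran from 77.1% to 79.2% in naive B cells, 66.7% to 68.5% in plasmablasts and 60.4% to 64.7% in plasma cells.

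The cluster with most tested CpGs, mm9 chr2:85154028-90279562, with 121 CpGs of 40 Olfr genes, stood at 93.3%, 94.5% and 94.6% in naive B cells, then 81.3%, 82.0% and 81.8% in plasmablasts, then 79.5%, 76.2% and 75.6% in plasma cells. A mixed cluster of Olfr, Vmn1r and Vmn2r genes, mm9 chr7:5163350-13788111, with 105 CpGs of 37 genes, was 16.9 points lower in plasma cells. An Olfr cluster, mm9 chr7:109625469-112411702, with 93 CpGs of 26 genes, was 13.8 points lower from a naive level of 74.8% ± 2.07 (SD, n = 3). These 3 did not overlap between any stages.

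A pair of Vmn1r clusters on chromosome 6, picked after their values were seen, lay near the ends of the range. In mm9 chr6:56966974-58478418, with 57 CpGs of 11 genes including Vmn1r27, levels were 93.2%, 95.6% and 94.8% in naive B cells, then 76.7%, 79.1% and 78.1% in plasmablasts, then 76.4%, 73.0% and 68.0% in plasma cells, and 57.9% of the CpGs were called lower in plasma cells. In mm9 chr6:89679320-90183237, with 48 CpGs of 8 genes including Vmn1r42, they were 87.2%, 89.6% and 89.0%, then 78.4%, 82.5% and 81.1%, then 79.3%, 74.99% and 79.5%, and 8.33% were called lower. The differences in plasma cells were -22.1 and -10.7 points. Of the CpGs with a naive level of 80% or more, 56.4% had no neighbour in the first cluster and 22.2% in the second. At those isolated CpGs alone the differences were -24.9 points (31 CpGs) and -14.9 points (8 CpGs). Across the 31 clusters, the difference in plasma cells at CpGs with a naive level of 80% or more had a Pearson correlation of -0.53 and a Spearman correlation of -0.53 with the share of such CpGs that had no neighbour. The clusters come from the same 9 libraries and are not independent samples.

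Not all receptor CpGs were methylated to begin with. The 103 CpGs under 20% in naive B cells lay in 24 stretches, 13 of which had at least 3 CpGs and held 89 of the 103. Of the 103, 97 were intergenic and 1 was within 1 kb of a receptor start, and their median distance to the assigned start was 18443 bases. The longest in CpG number, beyond the rule for named genes, were 15 CpGs 22220 bases or more from Olfr726 (mm9 chr14:50680944-50682133), at 6.4% in naive B cells, then 8.1% in plasmablasts, then 5.0% in plasma cells, and 14 CpGs 18441 bases or more from Olfr545 (mm9 chr7:109661729-109661986), at 1.6%, 4.5% and 1.3%. Others lay near Olfr1372-ps1 and Olfr1344, with 9 CpGs each, and near Vmn2r87, with 7. Over the 103 CpGs the level was 3.7%, 8.4% and 7.7% in naive B cells, then 7.3%, 12.2% and 7.6% in plasmablasts, then 4.5%, 4.8% and 4.4% in plasma cells. These levels moved with the library sets given above, being lower in the low set, and the part of the library sets in them was not tested. Most of these stretches lie far from the start of the gene they are listed under, and they are described here by that symbol only.

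The genes that serve these receptors in sensory neurons were examined by lists that were chosen with earlier results of these data known. Of the transduction genes 17 had at least 5 tested CpGs, and 4 were lower in plasmablasts and 14 in plasma cells, none higher, with medians of -4.78 and -14.4 points, beside -7.42 and -15.7 over all loci, of which 19.8% and 64.4% were lower. Those with most CpGs were Ano2, an olfactory chloride channel (-10.8 and -15.0 points, both passing), Ric8b, an exchange factor for the olfactory G protein (-4.43 and -12.7, the second passing), Gnai2 (-3.88 and -10.5, the second passing) and Gnal, the olfactory G protein alpha subunit (-2.64 and -12.3, the second passing). Gnal stood at 27.5% and Gnai2 at 22.9% in naive B cells. Omp, the olfactory marker protein, named after its values were seen, was at 96.3% in naive B cells against 83.9% in plasma cells.

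Of 22 genes for receptor choice and trafficking, 6 were lower in plasmablasts and 20 in plasma cells, none higher, with medians of -8.63 and -15.0 points, beside the same background. The 4 with most CpGs were Bcl11b (-8.64 and -16.2, both passing), Ebf3 (-2.66 and -10.6, the second passing), Tshz1 (-11.5 and -20.0, both passing) and Ebf2 (-0.59 and -11.0, the second passing), all transcription factors. Rtp1, which carries olfactory receptors to the cell surface and was also named after its values were seen, was lower by 16.8 and 22.4 points. Of 12 other chemosensory receptor genes, 6 were lower in plasmablasts and 10 in plasma cells, none higher, with medians of -14.5 and -18.6 points, again beside 19.8% and 64.4% of all loci and medians of -7.42 and -15.7. The 12 include Ms4a1, which encodes the B cell surface protein CD20 and was lower by 23.4 and 29.9 points. Those with most CpGs were the sweet taste receptor gene Tas1r2 (-6.13 and -19.2, the second passing), Ms4a5 (-9.59 and -17.9, neither passing), the bitter taste receptor genes Tas2r119 (-18.2 and -27.0, both passing) and Tas2r134 (-15.7 and -24.6, both passing), and the formyl peptide receptor gene Fpr-rs6 (-16.6 and -14.9, both passing). Between plasma cells and plasmablasts no gene of these lists was called.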

How the data were processed

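The authors deposited, for each CpG, counts of methylated and unmethylated reads in every library and a methylation fraction, per the file headers. The fraction equalled methylated over total reads. Single-end reads were aligned to mm9 with Bismark and Bowtie2 (versions not stated), per the submitters' processing notes. The gene symbol, class (promoter: 2500 bases before to 500 after a start) and distance of each CpG are the authors'. Their lists of differing CpGs used a false discovery rate of 0.01, with p-values not re-used here.

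CpGs with at least 10 reads in all 9 libraries were kept (356320 of 911004). Each CpG, and the reads summed over each gene with at least 5 tested CpGs, was tested over all 9 libraries with a quasi-binomial logistic model, an F test on the deviance, dispersions moderated with limma and floored at 1, and Benjamini-Hochberg adjustment over all features tested. A call needed an adjusted p under 0.01 and 20 points for a CpG or 5 for a gene. Means over libraries were compared with exact two-sided permutation tests.

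The dispersion prior departs from the planned fit. The plan took it from all tested CpGs, and that fit was run first. It was replaced by a prior from the 68357 CpGs between 10% and 90% in every group after the calls under both had been seen. In a test on simulated data for plasma cells against naive B cells, over 356320 CpGs, the prior used recovered 7, 35, 40 and 49 of 50 CpGs each with a fall of 20, 30, 40 and 50 points, and the planned prior recovered 0 of 200. Only 200 CpGs were changed in this simulation, which made the adjustment over all CpGs stricter than in the data. In the data the planned prior called 58106 CpGs lower in plasma cells. The simulation therefore cannot decide between the priors. Results of the planned prior are printed beside the first counts.

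Named genes were the 12 loci with most CpGs, the 5 with the largest and the 5 with the smallest difference in plasma cells, and preselected receptors with a tested CpG. A marker gene of the fixed lists is not reported here. The members and gene lists were chosen with earlier results of these data known. Alternatives were the read minimum, the size of difference, Fisher's exact test, limma on levels, library set or replicate number as a term, and leaving out each library. Versions were Python 3.11.15, NumPy 2.4.6, SciPy 1.17.1, pandas 2.3.3, matplotlib 3.10.9, R 4.3.3 and limma 3.58.1.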

Additional observations from a re-analysis of the deposited data

How the results depend on the processing

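The direction of the mean differences of receptor CpGs held under every alternative run, with leave-one-out ranges of -12.2 to -11.2 points in plasmablasts and -17.6 to -15.4 in plasma cells. Counts of calls moved more. For CpGs lower in plasmablasts and in plasma cells, the counts were 441 and 804 with a minimum difference of 10 points, 59 and 206 with 30 points, 78 and 181 of 533 CpGs with at least 20 reads, and 44 and 316 with limma on unweighted levels. Against the share of all CpGs, the receptor share was higher in every setting in plasma cells. In plasmablasts it was higher in all but limma (2.58% against 2.81%) and the prior from all CpGs (2.00% against 2.39%). None of these settings matched the starting level. In the main fit, at a naive level of 80% or more, plasmablasts were lower at 14.5% of receptor CpGs against 15.7% of others. In plasma cells these shares were 31.6% and 32.9%. Among intergenic CpGs they were 13.2% against 14.5% in plasmablasts and 29.3% against 31.3% in plasma cells. The prior from all CpGs gave 34 in plasmablasts, library set as a term gave 222 in plasma cells, and leaving out a library gave 180 to 247 and 397 to 571. Between plasma cells and plasmablasts, Fisher's exact test on pooled reads called 14 CpGs (0.822%, beside 1.22% of all CpGs). At least 20 reads left 1 (0.188%, beside 0.218%), and limma, library set and the prior from all CpGs left 0. Leaving out a library gave 0 to 9, the latter without plasma cells 1 (0.528%, beside 0.674%). Loci lower in plasmablasts and plasma cells numbered 50 and 150 of 245 with at least 3 CpGs a gene (20.4% and 61.2%, beside 19.6% and 62.1% of all loci), and 10 and 18 of 23 with at least 20 reads (43.5% and 78.3%, beside 29.4% and 68.8%), where fewer loci were tested. Limma on levels gave 90 in plasmablasts (77.6%, beside 56.5%), the prior from all loci 59, library set 29 in plasma cells, and leaving out a library 2 to 55 and 54 to 84. Between the LPS stages limma called 2 loci (1.72%, beside 11.2% of all loci). Leaving out a library gave 0 to 1, the latter without plasma cells 1 (0.862%, beside 15.2%).

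The change of the gap between receptor and other CpGs in plasma cells turned to 0.60 points with pooled reads, 0.63 at CpGs with a naive level of 80% or more and 0.37 beyond 10 kb. Against plasmablasts it ran from -0.20 to 0.52 without single libraries. Among intergenic CpGs it turned to 0.91 at 80% or more and 0.24 beyond 10 kb in plasmablasts, and to -0.89 with 20 reads in plasma cells. The gap between olfactory and vomeronasal CpGs turned to -0.26 with 5 and -0.43 with 20 reads in plasmablasts, with -0.17 to 0.40 without single libraries. In plasma cells it turned to -0.83 with 20 reads and -0.33 with pooled reads, and against plasmablasts to -0.40 in both. Without single libraries, Olfr726 ran from -0.24 (without plasmablasts 2) to 2.99 in plasmablasts and from -1.64 to 0.60 (without naive B cells 2) in plasma cells, with 0.16 without plasma cells 1. Olfr1344 ran from -2.21 to 0.52 (without naive B cells 2) and Olfr311 from -10.4 to 4.89 (without naive B cells 1) in plasma cells. Olfr311 turned to -0.63 in plasmablasts with limma. The cause was not tested for these turns.

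No pairing of the libraries by replicate number was detected: deviations of same-numbered libraries correlated between -0.029 and 0.030. Levels of single CpGs are coarse at the depth of these libraries, so the correlations cannot show whether libraries share animals. With the replicate number as a block, 1 receptor locus was lower in plasmablasts (0.862%, beside 6.35% of all loci) and 61 in plasma cells (52.6%, beside 51.7%), and 214 and 498 CpGs. A planned comparison of isolated CpGs flanked by A or T was not run, since no mm9 sequence was used here. The comparison by neighbours within 35 bases took its place and was chosen after seeing the data, as were the other dispersion priors. Median coverage of the receptor CpGs was 21 to 38 reads. The simulation, run at the real coverage of all tested CpGs, called 7 of 50 falls of 20 points. A call also needs a difference of at least 20 points, so that count does not measure depth alone.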
